A study of Mus musculus with 6 samples.

Results

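The genes described here make, remove, bind or respond to retinoic acid: Rdh10, Aldh1a1, Aldh1a2, Aldh1a3, Cyp26a1, Cyp26b1, Cyp26c1, Rarb, Dhrs3 and Crabp1. They were chosen by name, as every probe set that the array annotation gives to 1 of these 10 symbols alone, which yielded 12 probe sets of 9 genes among 34945 probe sets of 18193 genes. Cyp26c1 is not analysed here, since no probe set of the annotation used carries its symbol alone. The samples were mandibular arches, the embryonic tissue of the lower jaw, dissected from C57BL/6 mouse embryos at stage E10.5. 3 arrays (Affymetrix Mouse Genome 430 2.0) were labelled Tbx1-/-, lacking the T-box factor that directs pharyngeal development, and 3 were labelled Tbx1+/+, or wild type. Mandibular arches of 3 embryos were combined by genotype. Nothing says if the 3 arrays of a genotype had separate pools, and all p-values here rest on a spread between samples that may be technical. Which part of Tbx1 is disrupted was not stated in the text at hand.

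Retinoic acid is a small diffusible signal made from vitamin A (retinol). RDH10 oxidizes retinol to retinaldehyde, the ALDH1A enzymes oxidize retinaldehyde to retinoic acid, DHRS3 turns retinaldehyde back into retinol, and the CYP26 enzymes inactivate retinoic acid, so the signal is set by the balance of source and sink. Retinoic acid binds nuclear receptors such as RARB, which sit on DNA at paired copies of a short motif, and Rarb, Cyp26a1 and Dhrs3 are themselves induced by it. In the embryo Tbx1 and retinoic acid are known to oppose each other in the pharyngeal region, where loss of Tbx1 has been reported to alter Cyp26 and Aldh1a2 expression; the arrays compare the levels of these genes in the mandibular arch alone.

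The promoters of Rarb and Cyp26a1 are shown because they hold a match to the paired motif of retinoic acid receptors. The search covered 250 bases before to 50 bases after each RefSeq start site (GRCm38.p6) and looked on both strands for the receptor motif NGNTCA repeated after 5 bases (DR5), spelled NGNTCANNNNNNGNTCA. Of the 10 genes, 8 had a window in the table (11 windows in all), and the windows of 2 genes held a DR5 match, which is drawn in capitals. The Rarb window lies at chr14:16575427-16575726 on the minus strand and the Cyp26a1 window at chr19:37697558-37697857 on the plus strand, both printed 5′ to 3′ in the direction of transcription.
Rarb: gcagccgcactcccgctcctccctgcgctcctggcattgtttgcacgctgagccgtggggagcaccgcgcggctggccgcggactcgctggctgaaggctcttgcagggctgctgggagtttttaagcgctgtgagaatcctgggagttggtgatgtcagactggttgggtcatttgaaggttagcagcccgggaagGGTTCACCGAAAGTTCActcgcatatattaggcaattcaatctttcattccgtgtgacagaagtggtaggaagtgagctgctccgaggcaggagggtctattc
Cyp26a1: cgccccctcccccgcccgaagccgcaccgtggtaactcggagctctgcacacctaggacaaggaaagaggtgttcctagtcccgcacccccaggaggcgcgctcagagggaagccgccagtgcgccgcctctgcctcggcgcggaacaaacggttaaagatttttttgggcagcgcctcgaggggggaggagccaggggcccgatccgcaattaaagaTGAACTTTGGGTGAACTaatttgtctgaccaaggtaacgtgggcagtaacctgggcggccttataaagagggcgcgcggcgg
The Rarb match spans bases 53 to 37 upstream of the start site and reads along the strand of the gene. The Cyp26a1 match spans bases 32 to 16 upstream and reads along the opposite strand. The same motif was present in 0.861% of the 32851 mouse windows of this length, and repeats after 2 bases (1.11% of windows) or 1 base (1.25%) were found in none of the windows of these genes. A match describes letters in the window and says nothing of binding in this tissue.

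Values are log2 expression as deposited, and a level of 1 probe set cannot be set against that of another. Array medians lay between 6.08 and 6.15, and all 11 mandibular mesenchyme markers, Hand2, Dlx5 and Prrx1 among them, were above 4 on every array. The 1 probe set of Tbx1 read 7.59, 7.50 and 7.30 on the labelled-null arrays, against 6.93, 7.31 and 6.92 on the wild-type arrays, so it was not lower under the null label (difference 0.41, SE 0.14, limma adjusted p = 1.00). Since the probe set may lie outside the disrupted part, it is no check of the genotype, and all directions are those of the labels. Of 4 arch core mesoderm markers tested (Myf5, Tcf21, Msc and Lhx2) all were lower on each labelled-null array, and 2 passed the test. Labelled-null replicate 3 stood apart: the summed linear signal of 6 trophoblast and decidua markers was 24310 there, against 235 and 301 on the other labelled-null arrays and 199 to 236 on the wild-type arrays.

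None of the retinoic acid genes passed the test between the genotypes. In limma with Benjamini-Hochberg adjustment over 16073 genes, each read from its brightest probe set, 0 of 9 members passed at an adjusted p under 0.05, where the same threshold called 0.0373% of all genes tested (6 genes). With the replicate number as a block it was again 0 of 9, against 0.0622% of all genes (10 genes). At an unadjusted p under 0.05 there was 1 of 9, Aldh1a1, where the share over all genes was 2.68%. On these brightest probe sets, Aldh1a1 was also the only member of the 9 whose genotype groups did not overlap, as was the case for 6.43% of all genes. The synthesis enzyme Aldh1a1 and the degradation enzyme Cyp26a1 had the largest differences of the 9, both with lower means on the labelled-null arrays, while Rarb, Dhrs3, Crabp1 and Rdh10 had mean log2 differences of 0.06 or less in size.

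**Figure D1:**
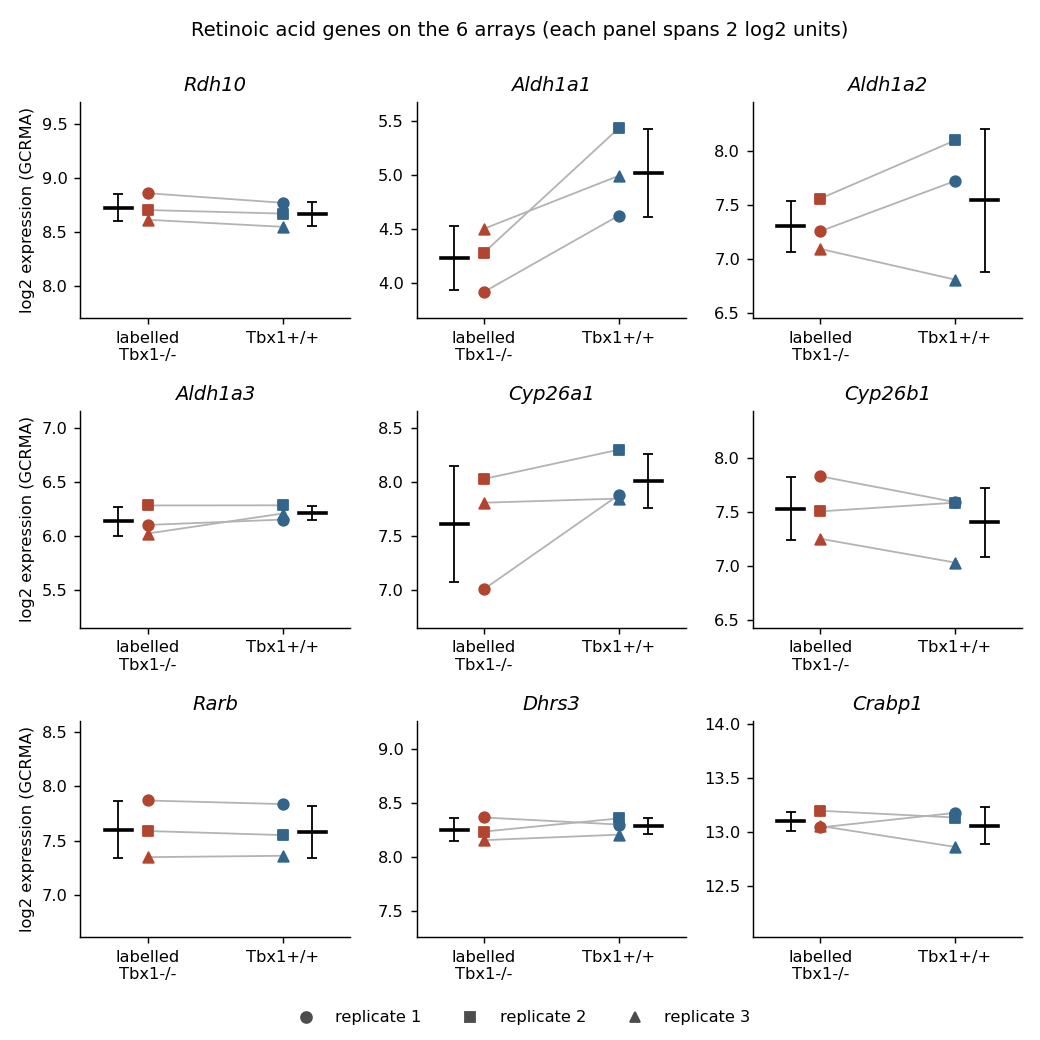
Log2 expression of the 9 measured retinoic acid genes, 1 panel each, with labelled Tbx1-/- arrays on the left (red) and Tbx1+/+ arrays on the right (blue); shapes give the replicate number, grey lines join arrays of the same number, and black bars give mean ± SD (n = 3). Aldh1a1 is the gene whose groups are apart, at 3.92 to 4.50 on the labelled-null arrays and 4.62 to 5.43 on the wild-type arrays, and the Rarb lines are almost level.

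Rdh10, the enzyme of the retinol oxidation step, did not pass on either of its probe sets. Its brighter set read 8.86, 8.70 and 8.61 on labelled-null replicates 1 to 3, against 8.77, 8.67 and 8.55 on wild-type replicates 1 to 3. The labelled-null array was the higher of each same-numbered pair, by 0.03 to 0.09, while the groups overlapped. The difference was 0.06 (SE 0.11), with a 95% interval of -0.18 to 0.31 and limma adjusted p = 1.00. The other set went the other way, with a mean of 7.36 ± 0.12 on the labelled-null arrays and 7.42 ± 0.15 on the wild-type arrays (SD, n = 3 each), a difference of -0.06 with an interval of -0.35 to 0.22.

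Aldh1a1, a retinaldehyde dehydrogenase, had the largest difference of the 9 genes. It read 3.92, 4.28 and 4.50 on labelled-null replicates 1 to 3, against 4.62, 5.43 and 4.99 on wild-type replicates 1 to 3. Every labelled-null array was thus below every wild-type array, although the nearest ones, labelled-null replicate 3 and wild-type replicate 1, were only 0.12 apart. The mean was 4.24 ± 0.29 on the labelled-null arrays and 5.02 ± 0.40 on the wild-type arrays (SD, n = 3 each), 1.72-fold lower (log2 -0.78, SE 0.23, 95% interval -1.30 to -0.27). The unadjusted limma p was 0.00799, rank 106 of 16073, and the adjusted p was 1.00, or 0.446 with the replicate number as a block, so the difference did not pass in either fit. The values run from 3.92 to 5.43, close to 4, the level of the filter on dim probe sets. Leaving out wild-type replicate 1 gave -0.98 and leaving out wild-type replicate 2 gave -0.57, the extremes over single arrays.

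Ttr, a gene also listed as a marker of yolk sac endoderm, moved with Aldh1a1 from array to array. Of the 5 genes whose values correlated most closely with Aldh1a1 over the 6 arrays, Ttr, or transthyretin, a plasma carrier of thyroid hormone and of the RBP4-retinol complex, was second (Pearson r = 0.98), after Crat (0.99) and before Pdzd8 (0.98), Zfp746 (0.98) and Dusp12 (0.97). These are descriptions over 6 arrays, picked as the highest of all genes tested. Ttr read 4.75, 6.10 and 5.98 on labelled-null replicates 1 to 3, against 6.42, 8.32 and 7.42 on wild-type replicates 1 to 3. Both genes were lowest on labelled-null replicate 1 and highest on wild-type replicate 2, and so were the yolk sac markers Afp, Apoa1 and Rbp4. This order was not particular to yolk sac markers. Crat, Pdzd8, Zfp746 and Dusp12 shared it, as did the member Cyp26a1 (7.01 and 8.30 on those arrays). The core mesoderm marker Myf5 shared it too (4.71 and 7.75), whereas Tcf21, Msc and Lhx2 did not. Of the other yolk sac markers, Apoa4 (6.23, 6.06 and 5.86 on labelled-null replicates 1 to 3) and Apob, whose highest value of the 6 arrays was on labelled-null replicate 2 (5.86), did not follow Aldh1a1 in this way. All 6 markers of the yolk sac list (Afp, Apoa1, Apoa4, Apob, Ttr and Rbp4) had lower means on the labelled-null arrays. The groups did not overlap for 4 of 6, against 6.43% of all genes in either direction. Their summed linear signal was 345 to 537 on the labelled-null arrays and 584 to 1329 on the wild-type arrays, and each of the 6 was above 4 on every array. The median log2 difference of the list was -0.50, and 0 of 6 passed over all genes in limma. At an unadjusted p under 0.05 there were 3 of 6, all lower, against 2.68% of all genes in either direction. Ttr did pass in limma with the replicate number as a block (adjusted p = 0.0362). Their part in the Aldh1a1 difference was not tested, and in a dissected tissue fewer cells of a type and less RNA per cell cannot be told apart.

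**Figure D2:**
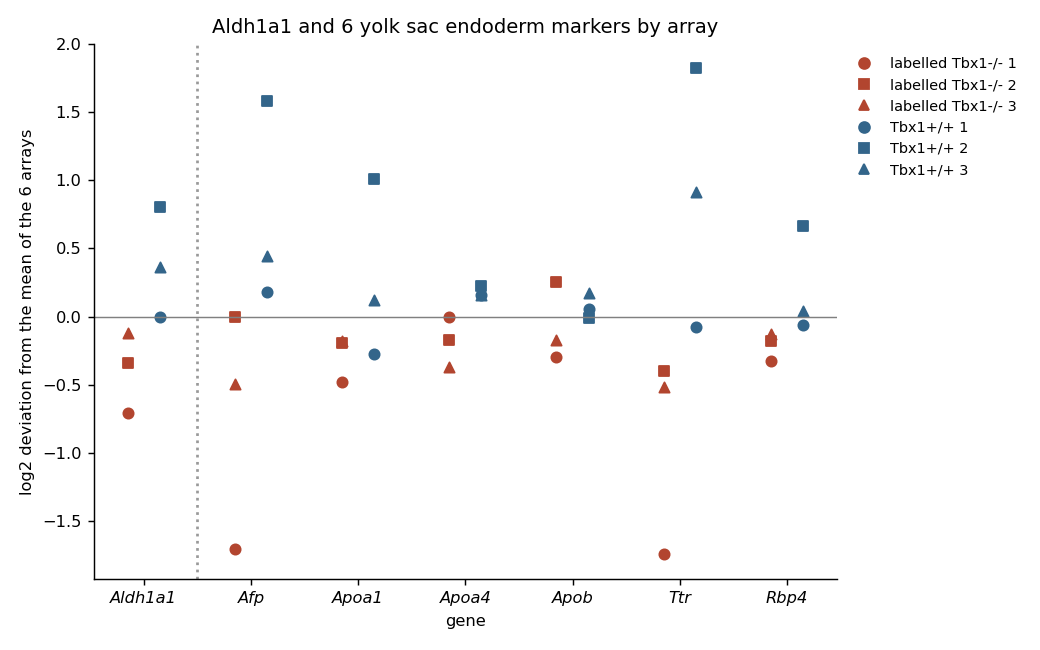
Log2 deviation of each array from the gene's mean over the 6 arrays, for Aldh1a1 and, right of the dotted line, the 6 yolk sac endoderm markers; red points are labelled Tbx1-/- arrays, blue points Tbx1+/+ arrays, and shapes give the replicate number. Aldh1a1, Ttr, Afp, Apoa1 and Rbp4 share the lowest array, labelled-null replicate 1, and the highest, wild-type replicate 2. Apoa4 and Apob do not share both.

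Aldh1a2, the main retinoic acid synthase of embryonic mesoderm, varied more among the wild-type arrays than between the genotypes. It read 7.26, 7.56 and 7.09 on labelled-null replicates 1 to 3, against 7.72, 8.10 and 6.81 on wild-type replicates 1 to 3. Wild-type replicate 3 was the lowest and wild-type replicate 2 the highest of all 6 arrays, so the labelled-null values lie inside the wild-type range. The difference was -0.24 (SE 0.30, 95% interval -0.92 to 0.44, limma adjusted p = 1.00). It depended on single wild-type arrays: without replicate 3 it was -0.61, and without replicate 2 it was 0.04, and neither value passed. Wild-type replicate 3 was also the lowest wild-type array for the ectoderm keratin Krt5 (6.97, 7.25 and 6.56 on labelled-null replicates 1 to 3, against 7.75, 7.93 and 6.91 on wild-type replicates 1 to 3). So it was for the ectoderm markers Epcam, Cdh1, Krt14, Trp63 and Grhl3, whereas Krt8 and Krt18 were lowest on wild-type replicate 1 among the wild-type arrays. The summed linear signal of the 8 ectoderm markers was 12964, 12526 and 24034 on labelled-null replicates 1 to 3, against 10371 to 12109 on the wild-type arrays. Labelled-null replicate 3 is the array with the trophoblast and decidua signal, and Krt8 (12.69, against 10.78 and 10.85 on the other labelled-null arrays) and Krt18 (13.50, against 12.10 and 12.01) were high there. The part of these markers in the Aldh1a2 values was not tested.

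Aldh1a3, a retinaldehyde dehydrogenase known from nasal and eye tissue, had close values on all 6 arrays. Its brightest set read 6.10, 6.28 and 6.02 on labelled-null replicates 1 to 3, against 6.15, 6.28 and 6.21 on wild-type replicates 1 to 3. The difference was -0.08 (SE 0.12, 95% interval -0.35 to 0.19), and the groups overlapped. Its other sets did not pass the filter and were not tested: 1 read 3.86 to 4.15 on the labelled-null arrays and 3.79 to 3.86 on the wild-type arrays, and the last read 3.22 to 3.49 on the labelled-null arrays and 3.05 to 3.58 on the wild-type arrays. The groups of the former did not overlap, but the nearest arrays, replicate 1 of each genotype, were only 0.008 apart. Both dim sets had slightly higher means on the labelled-null arrays, the reverse of the brightest set.

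Among the degradation enzymes, Cyp26a1 had a lower mean on the labelled-null arrays, which rested largely on 1 array. It read 7.01, 8.03 and 7.81 on labelled-null replicates 1 to 3, against 7.88, 8.30 and 7.85 on wild-type replicates 1 to 3. Labelled-null replicate 1 lay 0.80 below the next array, labelled-null replicate 2 lay inside the wild-type range, and the groups overlapped. The mean was 7.62 ± 0.54 on the labelled-null arrays and 8.01 ± 0.25 on the wild-type arrays (SD, n = 3 each), 1.31-fold lower (log2 -0.39, SE 0.25, 95% interval -0.98 to 0.19, limma adjusted p = 1.00). Without labelled-null replicate 1 the difference was -0.09, and without labelled-null replicate 2 it was -0.60, neither past the threshold. Paired by number, the labelled-null array was lower in 3 of 3 pairs, by 0.04 to 0.87, and with the number as a block the interval narrowed to -0.78 to -0.01 before adjustment, with an adjusted p of 1.00.

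Cyp26b1, the retinoic acid hydroxylase known from limb and craniofacial mesenchyme, did not share that direction. It read 7.83, 7.50 and 7.25 on labelled-null replicates 1 to 3, against 7.59, 7.58 and 7.03 on wild-type replicates 1 to 3. Replicate 3 was the lowest array of each genotype, and the groups overlapped over most of their range. The difference was 0.13 (SE 0.20, 95% interval -0.33 to 0.58, limma adjusted p = 1.00), and its sign turned when labelled-null replicate 1 (-0.02) or wild-type replicate 3 (-0.06) was left out.

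The 3 genes that respond to or bind retinoic acid had log2 differences of 0.04 or less in size. Rarb, a receptor gene induced by its own ligand through a DR5 element like the match printed above, read 7.87, 7.59 and 7.35 on labelled-null replicates 1 to 3, against 7.84, 7.55 and 7.36 on wild-type replicates 1 to 3. The same-numbered arrays thus differed by at most 0.04, while the arrays within a genotype spread over about 0.5. The difference was 0.02 (SE 0.17), with a 95% interval of -0.37 to 0.41, or -0.22 to 0.25 with the replicate number as a block. Cyp26a1, the other gene with a DR5 match, had its lowest value on labelled-null replicate 1, the array on which Rarb was highest.

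Dhrs3, the retinaldehyde reductase, read 8.37, 8.24 and 8.16 on labelled-null replicates 1 to 3, against 8.30, 8.36 and 8.21 on wild-type replicates 1 to 3. The groups overlapped, with a difference of -0.04 (SE 0.10, 95% interval -0.27 to 0.20). Crabp1, a cytoplasmic retinoic acid binding protein known from cranial neural crest, read 13.04, 13.20 and 13.06 on labelled-null replicates 1 to 3, against 13.18, 13.13 and 12.86 on wild-type replicates 1 to 3. Its difference was 0.04 (SE 0.09, 95% interval -0.16 to 0.24), and its groups overlapped as well. The interval of neither gene reaches 0.3 in either direction, whereas those of Aldh1a2 and Cyp26a1 reach beyond 0.9 below 0 and leave room for larger differences.

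**Figure D3:**
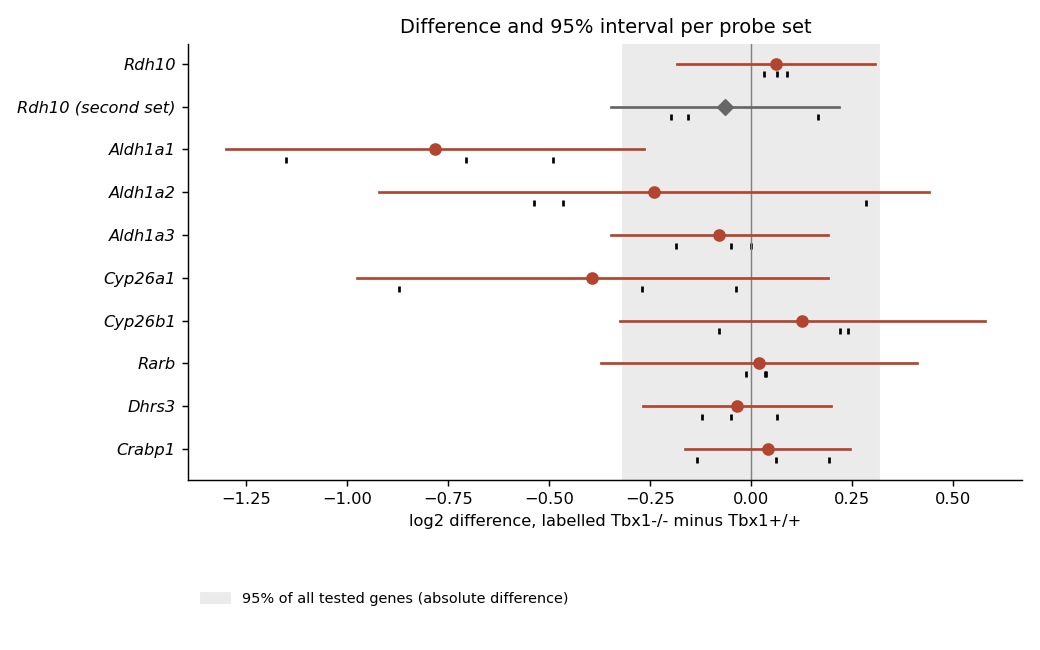
Log2 difference, labelled Tbx1-/- minus Tbx1+/+, for the 10 probe sets past the filter, with unadjusted 95% intervals from limma (lines) and the 3 differences between same-numbered arrays (ticks); the grey band holds 95% of all tested genes, whose absolute difference was at most 0.32. The intervals of all but Aldh1a1 include 0.

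By role, the 4 synthesis enzymes had a median log2 difference of -0.16 (range -0.78 to 0.06), the 2 measured Cyp26 enzymes -0.13 (-0.39 to 0.13) and the 3 response genes 0.02 (-0.04 to 0.04). The median over all 16073 genes tested was -0.01. Labelled-null means were lower for 5 of the 9 members and higher for 4, and over all genes 52.7% of means were lower. The synthesis and Cyp26 medians each rest on a few genes of opposite sign and lay at -0.0033 and -0.015 without wild-type replicate 2, so no class was set apart from the others.

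The arrays of a genotype differed from each other in a way that the replicate number partly followed. In 4 of the 9 genes, Rdh10, Aldh1a2, Cyp26b1 and Rarb, the 3 numbers had the same order of values in both genotypes, as they had in 22.8% of all genes tested; this comparison was chosen after the values were seen. Averaged over the pair, Rarb read 7.85, 7.57 and 7.35 and Cyp26b1 read 7.71, 7.54 and 7.14 for numbers 1, 2 and 3. The range of these pair means was 0.50 for Rarb and 0.57 for Cyp26b1, larger than any difference between same-numbered arrays of either gene (0.04 and 0.24). What a number shares is not given in the labels.

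Beyond these genes, 46 further genes of retinoid handling and response were listed, of which 38 were tested. Over all genes in limma 0 of 38 were higher and 0 lower, and before adjustment a p under 0.05 was reached by 0 in the higher and 2 in the lower direction. The share of all genes with such a p was 2.68% in either direction. Both of those, Ttr and the cytochrome P450 Cyp1b1, which can oxidize retinol and retinaldehyde, had groups that did not overlap. Of the other tested genes of these lists, Rbp4 and Dhrs4 did not overlap either, against 6.43% of all genes. Dhrs4 read 9.78 to 9.81 on the labelled-null arrays and 9.83 to 9.98 on the wild-type arrays. Cyp1b1 read 7.68, 7.59 and 7.72 on labelled-null replicates 1 to 3, against 7.91, 8.13 and 8.06 on wild-type replicates 1 to 3. Its difference of -0.37 (unadjusted p = 0.00769) did not pass after adjustment (adjusted p = 1.00), and with the mean of its probe sets it was -0.098 (unadjusted p = 0.418).

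Of the nuclear receptors and coregulators, 0 of 9 tested passed in limma, 0 had an unadjusted p under 0.05, and the median difference was 0.00. Rxrg, a retinoid X receptor, differed by -0.28, Nrip1, a corepressor induced by retinoic acid, by 0.18 (0.061 with the mean of its probe sets), and Rarg, a retinoic acid receptor, by -0.06 (-0.12 to -0.03 with 1 array left out). Among 6 carriers and storage genes 5 had lower means and the median was -0.13. Rbp4, the plasma retinol carrier and, with Ttr, a member of the yolk sac list, read 5.84 to 6.04 on the labelled-null arrays and 6.10 to 6.83 on the wild-type arrays, and its difference of -0.43 was -0.20 without wild-type replicate 2. Crabp2, which delivers retinoic acid to its receptors, differed by -0.14, or -0.05 with array weights. Neither of these passed.

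Of 11 further retinoid oxidoreductases 6 had lower and 5 higher means, with a median of -0.02; Retsat, a retinol saturase, and Adh4, an alcohol dehydrogenase, differed by 0.20 each. Retsat was at 0.081 with the mean of its probe sets, and Adh4 at 0.054 without labelled-null replicate 2. Of 12 further response genes 10 had higher means and 2 lower, with a median of 0.05, and 0 passed in limma or had an unadjusted p under 0.05. Meis2, a homeobox gene, differed by 0.13, or 0.065 once labelled-null replicate 1 was dropped and 0.22 once labelled-null replicate 3 was. Hic1, a transcriptional repressor, differed by 0.35, or 0.17 without wild-type replicate 3 and 0.59 without wild-type replicate 2. Tgm2, a transglutaminase, read 8.45, 8.54 and 12.99 on labelled-null replicates 1 to 3, against 7.89, 8.20 and 8.69 on wild-type replicates 1 to 3. Its difference of 1.73 was 0.24 without labelled-null replicate 3, the array with the high trophoblast and decidua markers; their part in it was not tested. On the brightest probe set of none of the 9 members was that array the highest of the 6. On 1 dim set of Aldh1a3 it was (4.15, against 3.79 to 3.92 on the other arrays). The part of the trophoblast and decidua signal in the members' values was not tested.

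**Figure D4:**
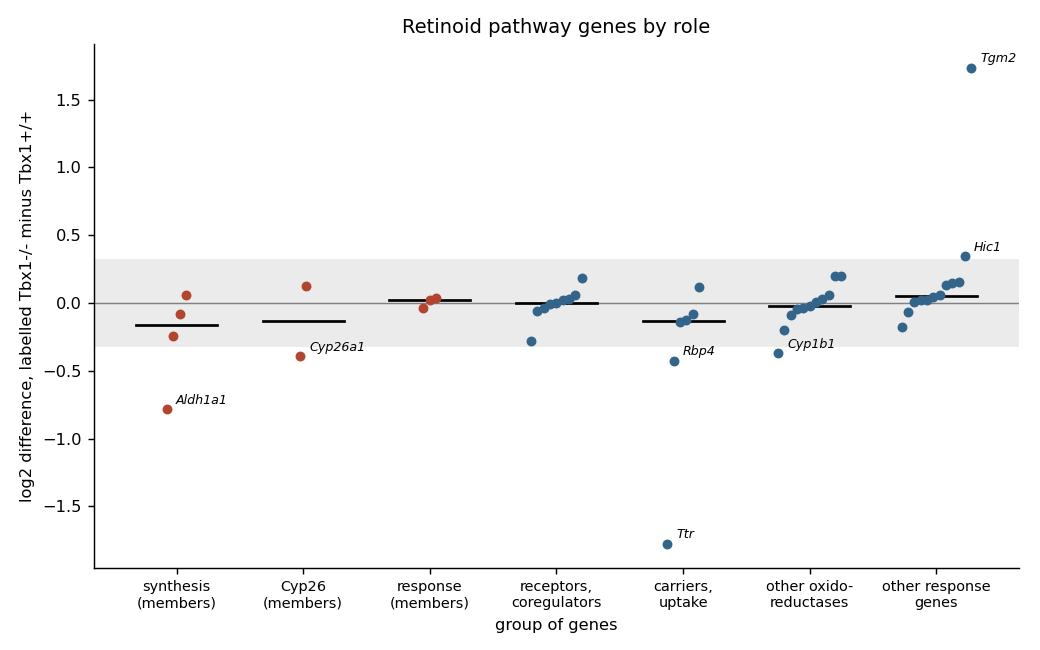
Log2 difference, labelled Tbx1-/- minus Tbx1+/+, for the 9 members by role (red) and 38 further retinoid genes by list (blue), with medians as black bars; the grey band holds 95% of all tested genes and genes outside it are named. Most points lie within the band, and Ttr (-1.78) and Tgm2 (1.73) lie furthest from 0.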

How the data were processed

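Expression was measured on 6 Affymetrix arrays, 3 labelled Tbx1-/- and 3 labelled Tbx1+/+, from labelled cDNA amplified from 100 ng of total RNA, per the labels' protocols. The authors deposited log2 values per probe set, made with GCRMA per the submitters' processing notes, which name no version. Values between 1.95 and 15.11 with near-equal medians identified the log2 scale. Normalization between arrays would remove a shift shared by most genes.

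A gene was read from its brightest probe set among the 34945 with 1 symbol (932 had several, 9160 none, 64 were controls), and gene IDs found 34741 of them in the RefSeq gene table, with 0 symbols changed. Genes above 4 on at least 3 arrays were kept (16073 of 18193). A further fit had 1 row per probe set (29935 kept). Of the 12 probe sets of the members, it held the 10 that passed the filter. The genotype effect was estimated by limma 3.58.1 under R 4.3.3 (lmFit, eBayes with an intensity trend), adjusted by Benjamini-Hochberg, with a threshold of 0.05; intervals are at 95% and unadjusted. The fit was tried on 20 simulated sets of 16073 genes, with 200 genes changed. It called 27.1%, 76.9% and 97.5% of genes changed by 0.5, 1 and 2 log2 units, and 4.15% of calls were false. These shares hold for the simulated setting alone. In the data, without the replicate block, Ttr (-1.78) and Lhx2 (-1.71) were not called. The number of arrays limits the precision.

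Replicate numbers are shared by the genotypes. Same-numbered arrays deviated together from their genotype means (r = 0.26, 0.13 and 0.14), other pairs less (-0.20 to 0.06), so the numbers were treated as a possible pairing on the data alone. Within a genotype, the SD of the difference between arrays was 0.240 to 0.413, and none were identical. The members and lists were chosen with earlier results of these data known. Genes named beside the members were Tbx1, up to 3 tested genes of each pathway list with the smallest p, the 5 genes most like Aldh1a1, which had the smallest p of the members, and markers that moved with a member. Promoters are RefSeq's (GRCm38.p6). Alternatives were the filter, a floor, the trend, 2 further normalizations, the mean of probe sets, the block, array weights, 1 row per probe set and each array left out.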

Additional observations from a re-analysis of the deposited data

How the results depend on the processing

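Over the 9 members and 15 alternatives (135 values) no member passed the threshold, the lowest adjusted p being 0.446 for Aldh1a1 with the replicate block, and 123 values kept their sign. Aldh1a1 (-0.98 to -0.57) and Cyp26a1 (-0.60 to -0.09) kept theirs throughout. The sign turned with the mean of probe sets for Rdh10 (-0.00069) and Aldh1a3 (0.058), and with array weights for Aldh1a2 (0.070), Rarg (0.018) and Apob (0.0049). With 1 array left out, the differences ranged from -0.0048 to 0.12 for Rdh10, -0.61 to 0.037 for Aldh1a2, -0.059 to 0.26 for Cyp26b1, -0.11 to 0.15 for Rarb, -0.092 to 0.013 for Dhrs3 and -0.057 to 0.10 for Crabp1, and from -0.14 to 0.015 for the second set of Rdh10. The class medians ranged from -0.34 to -0.0033 for synthesis, -0.27 to -0.015 for Cyp26 and -0.092 to 0.10 for response genes, and with array weights they were 0.03, 0.03 and 0.08.

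Among all genes, limma's unadjusted p was under 0.05 for 204 to 378 higher and 135 to 384 lower genes over the settings with 1 row per gene. The count of calls, 2 higher and 4 lower, was 0 and 2 without the filter, with the floor, without the trend and with 1 row per probe set, and 0 and 0 with the mean of probe sets. It was 1 higher after a further quantile normalization and with centred arrays. With the replicate block, the paired fit, it was 4 higher and 6 lower, and the block changed no call among the members. With 1 array left out, 0 to 14 genes were higher and 0 to 8 lower, the fewest without wild-type replicate 3 and the most without labelled-null replicate 3. In the simulated sets, 3 arrays per genotype left differences of 0.5 mostly uncalled. In the data, differences as large as those of Ttr (-1.78) and Lhx2 (-1.71) were not called without the replicate block. Aldh1a1 and the dim sets of Aldh1a3 lie near the filter level.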

Other observations

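Other arch cell types were compared with the genotype labels as well. Besides Hoxa2, the Hox genes listed as second arch and trunk markers were Hoxb2, Hoxa3, Hoxb3, Hoxb4 and Hoxa5. Their means were higher on the labelled-null arrays, by 0.17, 0.19, 0.41, 0.14 and 0.10. Over all genes 52.7% of means were lower there. The groups of Hoxb2, Hoxb3, Hoxb4 and Hoxa5 overlapped. Those of Hoxa3 did not (5.16 to 5.24 on the labelled-null arrays, 4.86 to 5.11 on the wild-type arrays), as for 6.43% of all genes. Hoxa2, which marks the second arch and is known to be sensitive to retinoic acid, read 5.65, 6.34 and 4.72 on labelled-null replicates 1 to 3, against 3.54, 3.16 and 3.15 on wild-type replicates 1 to 3. Its wild-type values were all under 4, the level of the filter on dim probe sets, so it entered the test only through the labelled-null arrays, and these values are a description. Hoxb1, a direct retinoic acid target, read 4.73, 4.79 and 4.56 on the labelled-null arrays, against 3.88, 4.57 and 5.17 on the wild-type arrays, and its groups overlapped. All 5 pharyngeal endoderm markers tested had higher means on the labelled-null arrays, with a median of 0.08, and 0 passed in limma or had an unadjusted p under 0.05.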
